A study of Mus musculus with 27 samples.

Results

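Of the 37991 genes quantified in mouse calvarial cells, 10 are described here across 9 days of osteoblast differentiation: Galnt3, Fam3c, A430107O13Rik, Fubp3, Klhdc5, Eya4, Colec10, Lin7c, Ppp6r3 and Ccdc34. They were chosen by name, as mouse counterparts of genes named at human loci associated with bone mineral density, and not by their values in these samples. A430107O13Rik is the older symbol of Cped1. The cells came from the calvaria, the bony roof of the skull, of newborn mice aged 5 to 9 days and of the strain C57BL/6J-Col3.6 CFP, in which a promoter fragment of collagen type I drives cyan fluorescent protein. After 4 days of growth, the fluorescent cells were sorted and returned to culture in medium with ascorbic acid and 4 mM β-glycerol phosphate, which all samples received. RNA was taken every other day from day 2 to day 18 of differentiation. The transgene marks pre-osteoblasts and more mature osteoblasts alike, the number of mice behind a culture was not given in the sources used here, and there was no undifferentiated or untreated group.

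Each day held 3 RNA sequencing profiles, 27 in all, which carried 1 barcode and differed in the lane. Over genes with whole-number counts, the lanes of a day agreed within the sampling noise (chi-square tests, 0.999 to 1.02 per degree of freedom, with the smallest p at 0.0513), and they were counted as 1 sample. The methods of the study call the 3 profiles of a day triplicate samples, and the titles number them as replicates. Counted as 1 sample, a day has no replicate here. The errors over lanes then cover sequencing only, and a trend is tested against the scatter between days. Summed over its lanes, a day held 22470195 to 62009157 counts. A gene with 3 counts, the floor used here, had 0.0484 to 0.134 CPM (counts per 1000000 of the library), depending on the day. The 10 osteoblast markers had a summed level of 3001 to 9330 TPM (transcripts per 1000000), with Col1a1 and Col1a2 high on all days, while Ibsp, a gene of mineralising osteoblasts, went from 0.701 CPM on day 2 to 88.9 CPM on day 18. Sp7, a transcription factor of osteoblasts, had 49.8 and 14.2 CPM on these days, and the slopes of Sp7, Spp1 and Alpl did not pass.

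The loci named in studies of bone density hold genes of many kinds. Galnt3 encodes an enzyme that starts mucin-type O-glycosylation and protects the phosphate hormone FGF23 from cleavage, Fam3c encodes a secreted cytokine-like protein, and Colec10 a secreted lectin of the complement system. Eya4 is a transcriptional coactivator and phosphatase that works with the sine oculis homeobox factors, and Fubp3 binds single-stranded nucleic acid at far upstream elements. Klhdc5 is a kelch protein that brings substrates to the CUL3 ubiquitin ligase, Ppp6r3 is a regulatory subunit of protein phosphatase 6, and Lin7c is a PDZ scaffold at cell junctions. A430107O13Rik encodes a protein with cadherin-like and esterase-like domains, and Ccdc34 a coiled-coil protein.

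The promoters printed here are those of the 2 genes that rose furthest and the 2 that fell furthest among the genes called by the line in day, so that opposite profiles can be set side by side. Each run holds the 250 bases before the start in RefSeq (GRCm38.p6 table), on the strand of the gene and 5′ to 3′, and was found 1 time in NCBIM37, the build of the files. Capitals mark a GC box (GGGCGG) or a RUNX core (TGTGGT) on either strand.
A430107O13Rik, chr6:21935660-21935909, plus strand: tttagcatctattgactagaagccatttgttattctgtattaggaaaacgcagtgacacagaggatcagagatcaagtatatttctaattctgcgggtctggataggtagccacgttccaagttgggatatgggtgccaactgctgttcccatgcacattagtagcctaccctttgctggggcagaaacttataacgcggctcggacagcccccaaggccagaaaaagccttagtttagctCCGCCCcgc
Eya4, chr10:23069750-23069999, minus strand: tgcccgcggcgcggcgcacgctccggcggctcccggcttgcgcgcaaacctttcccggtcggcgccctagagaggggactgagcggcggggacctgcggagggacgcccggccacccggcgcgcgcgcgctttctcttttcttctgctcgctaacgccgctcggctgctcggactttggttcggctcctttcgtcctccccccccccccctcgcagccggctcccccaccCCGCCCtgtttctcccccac
Fubp3, chr2:31427921-31428170, plus strand: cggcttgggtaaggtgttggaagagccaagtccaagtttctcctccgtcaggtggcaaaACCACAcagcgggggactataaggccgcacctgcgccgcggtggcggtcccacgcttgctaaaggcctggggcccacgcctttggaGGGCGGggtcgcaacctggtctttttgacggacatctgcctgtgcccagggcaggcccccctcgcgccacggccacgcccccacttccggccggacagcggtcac
Lin7c, chr2:109730785-109731034, plus strand: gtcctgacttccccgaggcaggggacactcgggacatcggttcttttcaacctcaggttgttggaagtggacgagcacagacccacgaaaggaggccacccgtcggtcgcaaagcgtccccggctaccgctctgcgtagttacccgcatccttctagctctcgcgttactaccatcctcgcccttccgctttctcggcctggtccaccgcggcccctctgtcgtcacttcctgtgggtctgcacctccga

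The A430107O13Rik window held 8 CpG dinucleotides at a GC content of 48.0%, against 35 and 74.0% for Eya4 (25 and 67.6% before a second RefSeq start), 20 and 66.8% for Fubp3 and 22 and 62.0% for Lin7c. The median over all 32851 promoters of the table was 6 CpG and 52.4%. A430107O13Rik and Eya4, which rose by nearly the same amount, thus had the fewest and the most CpG of the 4. The GC box occurred in the windows of A430107O13Rik, Eya4 and Fubp3 and in 32.7% of all promoters, and the RUNX core occurred in that of Fubp3 and in 14.0% of all promoters. Neither a TATA box (TATAAA, in 12.4% of all) nor a CCAAT box (CCAAT, in 33.8%) was in these 4 windows. Of the 10 genes, 8 had an entry in the table, and Klhdc5 and Colec10 had none.

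In all, 6 of the 10 genes followed the day. In a straight line in day fitted by edgeR's quasi-likelihood test to all 15659 genes that passed the filter on low counts, A430107O13Rik, Eya4 and Klhdc5 rose and Fubp3, Lin7c and Ccdc34 fell. All 10 passed the filter. The background was high: 54.3% of all genes tested were called, 28.3% as rises and 26.1% as falls, so that 6 of 10 is near the share of any genes. A natural spline with 3 degrees of freedom, which also finds profiles that turn, called 7 of the 10, the same 6 and Colec10, against 57.5% of 16256 genes. Between day 2 and day 18 the median fitted log2 change came to 0.00 over the 10 genes and 0.05 over all genes tested, and the median size of the change was 0.74 and 0.76.

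**Figure D1:**
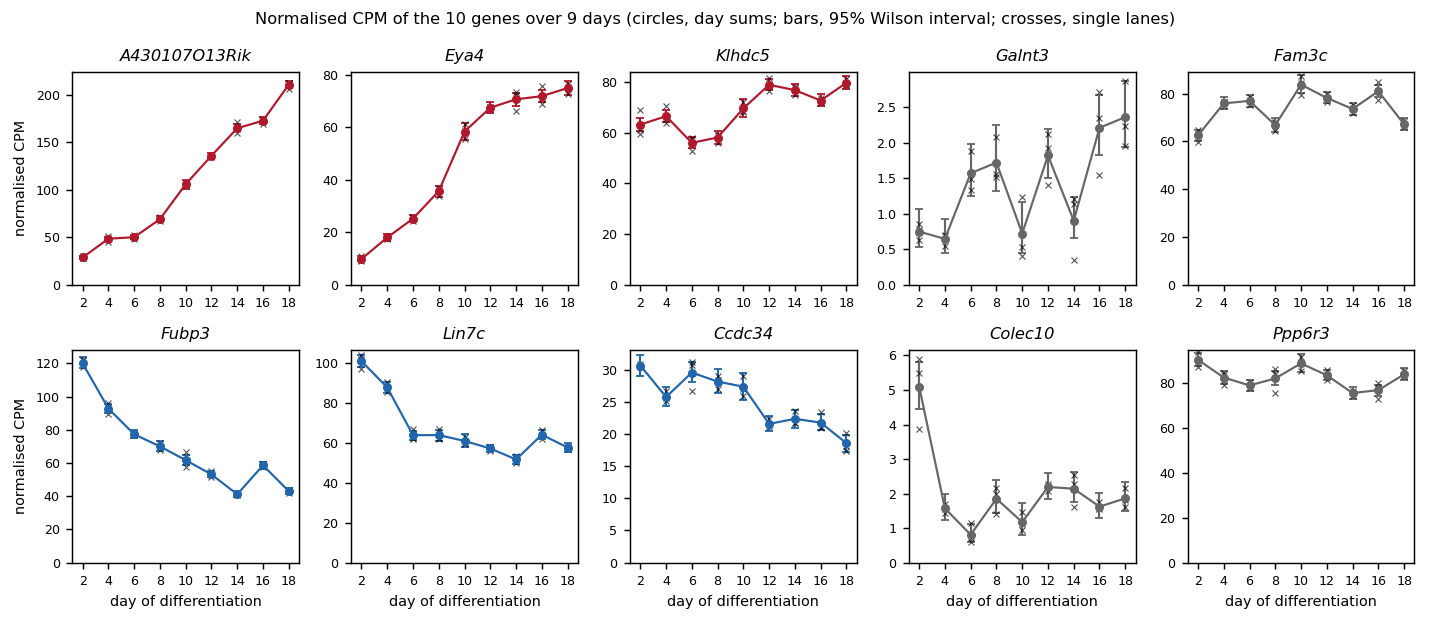
Normalised CPM (vertical axis, from 0) of each of the 10 genes against day of differentiation (horizontal axis). Circles are the sums over 3 lanes with 95% Wilson intervals and crosses single lanes, and colour gives the call of the line in day (red, rise; blue, fall; grey, not passed). A430107O13Rik climbed from 28.7 to 211 CPM and Fubp3 fell from 120 to 43.0 CPM, while Galnt3 and Colec10 had wide intervals.

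A430107O13Rik (ENSMUSG00000062980; NCBIM37 chromosome 6, 21935916 to 22206404, plus strand) rose through the whole course. Its normalised CPM, the summed count divided by the library size and the upper-quartile factor, was 28.7, 48.5, 50.1, 69.1, 106, 136, 165, 173 and 211 on days 2, 4, 6, 8, 10, 12, 14, 16 and 18, an order in which all series of values are given. Each day was above the one before it, and the days 2 to 6 (28.7 to 50.1) did not overlap the days 14 to 18 (165 to 211). Day 18 stood at 7.36 times day 2, and the fitted log2 change, given with its standard error here and throughout, was 2.86 ± 0.20 (adjusted p = 1.10e-05 from edgeR). The 3 lanes of day 18 gave 213, 206 and 213 CPM, a spread far smaller than the change. A lincRNA on the opposite strand, Gm17429, overlaps the gene and had 306 counts over all days against 42952, and whether the reads were counted by strand was not given in the sources used here. RSEM gave whole counts to A430107O13Rik in 3 of the 27 profiles, so some of its reads were divided with other transcripts.

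Eya4 (ENSMUSG00000010461; chromosome 10, 22823974 to 23069701, minus strand) rose as far, but early. It had 9.82, 18.0, 25.2, 35.7, 58.4, 67.5, 70.7, 71.9 and 75.0 CPM from day 2 to day 18. Day 12 stood at 6.87 times day 2, and day 18 at 1.11 times day 12, where A430107O13Rik had ratios of 4.74 and 1.55. The fitted log2 change was 2.87 ± 0.40 (adjusted p = 0.000244 from edgeR), and the spline gave an adjusted p of 3.45e-08 (edgeR). The whole log2 profiles of Eya4 and A430107O13Rik, each centred on its mean, differed by a root mean square of 0.24, against 1.46 between Eya4 and Fubp3.

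Klhdc5 (ENSMUSG00000040102; chromosome 6, 147039663 to 147061300, plus strand) rose by little. Its CPM was 63.2, 66.5, 56.0, 58.1, 69.6, 78.9, 76.8, 72.7 and 79.7 from day 2 to day 18. The days 2 to 6 stayed under the days 14 to 18, by a ratio of means of 1.23. The fitted log2 change was 0.41 ± 0.14 (adjusted p = 0.0279 from edgeR). The call was lost under 5 of 19 alternatives: without day 6, day 14 or day 18 (adjusted p = 0.0548, 0.0574 and 0.0768 from edgeR), without replicate 1 (0.0500) and with no filter beyond 1 count (0.0688).

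Fubp3 (ENSMUSG00000026843; chromosome 2, 31428171 to 31473046, plus strand) fell the furthest. Its CPM was 120, 92.8, 77.3, 70.0, 61.7, 53.1, 41.1, 58.6 and 43.0 from day 2 to day 18. The fall was unbroken to day 14, and day 16 stood above the days on either side of it in all 3 lanes (59.2, 57.7 and 59.1 CPM). The days 14 to 18 lay under the days 2 to 6, and the fitted log2 change was -1.34 ± 0.19 (adjusted p = 0.000293 from edgeR).

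Lin7c (ENSMUSG00000027162; chromosome 2, 109731010 to 109741160, plus strand) fell early and then levelled. It had 101, 87.8, 63.9, 63.9, 61.0, 57.2, 51.7, 64.1 and 57.7 CPM from day 2 to day 18. Day 12 stood at 0.565 times day 2 and day 18 at 1.01 times day 12, and the days 2 to 6 overlapped the days 14 to 18. The fitted log2 change was -0.72 ± 0.18 (adjusted p = 0.00702 from edgeR). Without day 2 it was -0.51 and did not pass (adjusted p = 0.0566 from edgeR).

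Ccdc34 (ENSMUSG00000027160; chromosome 2, 109857974 to 110013517, plus strand) fell late. Its CPM was 30.7, 25.8, 29.6, 28.2, 27.4, 21.6, 22.4, 21.8 and 18.6 from day 2 to day 18. From day 2 to day 10 it stayed between 25.8 and 30.7, and from day 12 to day 18 between 18.6 and 22.4. The fitted log2 change was -0.64 ± 0.14 (adjusted p = 0.00301 from edgeR). Ccdc34 had whole counts in 9 of 27 profiles, and 1700024P03Rik, on the opposite strand within it, had 32 counts against 9412.

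Ppp6r3 and Fam3c did not pass either test. Ppp6r3 (ENSMUSG00000024908; chromosome 19, 3454933 to 3575749, minus strand) had 90.2, 82.3, 78.8, 81.9, 88.6, 83.3, 75.4, 76.7 and 83.7 CPM from day 2 to day 18. Its highest day stood at 1.2 times its lowest, the narrowest range of the 10 genes, and its fitted log2 change was -0.11 ± 0.11 (adjusted p = 0.402 from edgeR; 0.769 with the spline). Fam3c (ENSMUSG00000029672; chromosome 6, 22256520 to 22306243, minus strand) had 62.5, 75.9, 77.0, 66.8, 83.8, 78.2, 73.6, 81.0 and 67.2 CPM from day 2 to day 18. Days 2, 8 and 18 were the lowest, in no order with the day, and the fitted log2 change was 0.11 ± 0.15 (adjusted p = 0.581 from edgeR; 0.362 with the spline).

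Galnt3 and Colec10 had the fewest counts of the 10 genes. Galnt3 (ENSMUSG00000026994; chromosome 2, 65920823 to 65963051, minus strand) had 32, 28, 72, 54, 16, 107, 40, 109 and 100 counts from day 2 to day 18, or 0.748, 0.645, 1.57, 1.72, 0.721, 1.82, 0.901, 2.21 and 2.36 CPM. Its lowest day, day 4 (95% Wilson interval 0.446 to 0.932 CPM), lay under its highest, day 18 (1.94 to 2.87), in a comparison of these libraries that picks the extremes. Days 10 and 14 were low among higher neighbours, and the fitted log2 change of 1.37 had a standard error of 0.56 and did not pass (adjusted p = 0.0610 from edgeR). It passed without day 6, day 8 or day 14 (adjusted p = 0.0420, 0.0493 and 0.0326 from edgeR) and with DESeq2 (0.0418).

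Colec10 (ENSMUSG00000038591; chromosome 15, 54242329 to 54297913, plus strand) had 218 counts on day 2 and 68, 37, 58, 26, 129, 95, 80 and 79 counts from day 4 to day 18, or 5.10, 1.57, 0.807, 1.85, 1.17, 2.19, 2.14, 1.62 and 1.86 CPM. Day 2 stood alone, at 2.33 times the next highest day (95% Wilson interval 4.46 to 5.82 CPM on day 2 and 1.84 to 2.60 on day 12). The line did not pass (log2 change of -0.76 ± 0.61, adjusted p = 0.319 from edgeR), and the spline did (adjusted p = 0.0227 from edgeR). Without day 2 the fitted log2 change was 0.70 and the spline no longer passed (adjusted p = 0.536 from edgeR), nor did it without day 6 (0.0572) or with 2 degrees of freedom (0.178). The intervals and the floor cover counting error only.

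**Figure D2:**
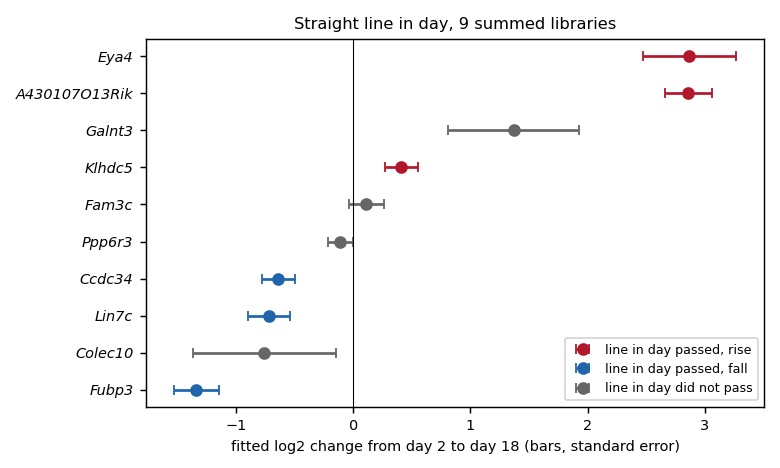
Fitted log2 change from day 2 to day 18 (horizontal axis) of the 10 genes (vertical axis), with standard errors as bars and colour for the call of the straight line in day. Eya4 (2.87) and A430107O13Rik (2.86) lie apart from the rest, Fubp3 (-1.34) is lowest, and Galnt3 (1.37) has a wide error.

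Levels between genes were compared in TPM, which divides by transcript length, after upper-quartile normalization. Fubp3 averaged 82.8 TPM, from 46.9 on day 14 to 138 on day 2. Fam3c averaged 68.5 ± 7.06 TPM (SD over the 9 days) and A430107O13Rik 32.9 ± 19.6 TPM. Lin7c averaged 31.5 ± 6.96 TPM, Ppp6r3 27.5 ± 1.22 TPM, Ccdc34 23.8 ± 2.94 TPM, Eya4 19.8 ± 10.9 TPM and Klhdc5 18.3 ± 2.78 TPM. In this order every gene's range over the days overlapped that of the next. These ranges pool the days and do not compare genes on the same day. Fam3c was above A430107O13Rik on every day before day 18, with 58.8 against 8.1 TPM on day 2 and 72.5 against 53.6 TPM on day 16. Galnt3 averaged 1.52 ± 0.791 TPM and Colec10 0.730 ± 0.414 TPM, and their ranges also overlapped each other. The break in the order lay between Klhdc5, never under 14.9 TPM, and Galnt3, never above 2.69 TPM.

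The order turned over the course. On day 2 the level of Fubp3 was 138 ± 10.2 TPM (SD over 3 lanes) and that of A430107O13Rik 8.10 ± 0.462 TPM. On day 18 they were 53.3 ± 4.13 and 62.3 ± 1.14 TPM, beside 61.9 ± 2.08 TPM for Fam3c. Among genes with a value above 0, the mean level of Fubp3 had a percentile rank of 94.3 and that of Colec10 of 39.6, and 8 of the 10 genes were above the median. With 1 TPM taken as expressed, 8 genes were expressed on 9 of 9 days, Galnt3 on 6 and Colec10 on 1, day 2, at 1.73 ± 0.367 TPM.

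**Figure D3:**
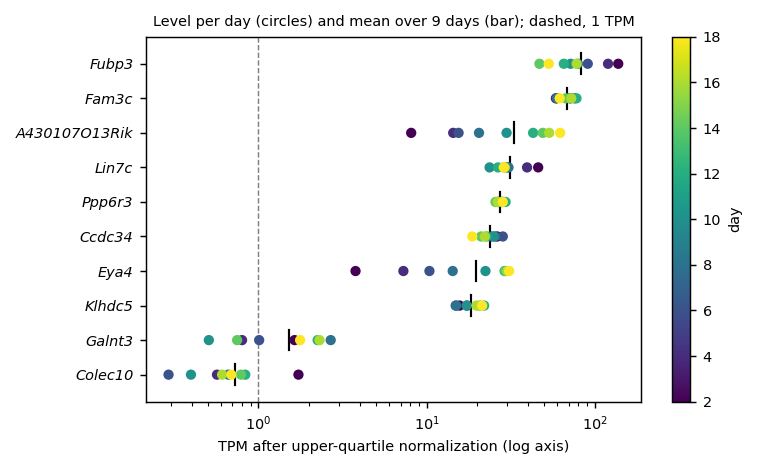
Level of each of the 10 genes in TPM after upper-quartile normalization (horizontal log axis), ordered by mean level (vertical axis). Circles are days, coloured from day 2 (dark) to day 18 (yellow), the bar is the mean and the dashed line 1 TPM. A430107O13Rik and Eya4 run from dark to yellow with rising level, Fubp3 mostly the other way, and Galnt3 and Colec10 lie around 1 TPM.

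For Galnt3, TPM and CPM gave different profiles. Its mean transcript length as estimated by RSEM moved between 948 bases on day 2 and 2894 bases on day 6, and its TPM stood at 1.64 on day 2 and peaked at 2.69 on day 8, while its CPM peaked on day 18. Lin7c had lengths from 3131 to 4071 bases and its lowest TPM, 23.7, on day 10, where its lowest CPM was on day 14. Klhdc5, Eya4 and Colec10 kept 1 length in all days. Eya4 and Colec10 then had their highest and lowest days in common on both scales, and Klhdc5 its lowest, while its highest was day 12 in TPM and day 18 in CPM.

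Several of the 10 genes lie beside other genes named at bone density loci, and in some of these pairs the profiles parted. Wnt16, a secreted Wnt ligand, lies between A430107O13Rik (31822 bases away) and Fam3c (6110 bases away). Its CPM was 0.421, 0.415, 0.785, 2.17, 3.65, 5.02, 5.63, 5.41 and 4.71 from day 2 to day 18. Wnt16 rose (log2 change of 4.19 ± 0.71, adjusted p = 0.000740 from edgeR), as did A430107O13Rik, while the slope of Fam3c did not pass. Wnt16 had 18 counts on day 2, and its TPM, 18.6 on that day and 0.380 on day 4, followed a mean transcript length that moved from 616 to 1987 bases. Ing3, on the other side of A430107O13Rik, had a fitted log2 change of 0.51 (adjusted p = 0.0568 from edgeR). These differences between neighbours were not tested.

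Ppp6r3 lies 9075 bases from Lrp5, a co-receptor for Wnt ligands. Lrp5 had 31.3 CPM on day 2, 63.7 on day 10 and 108 on day 18 and rose (log2 change of 1.71 ± 0.15, adjusted p = 2.58e-05 from edgeR), beside 90.2, 88.6 and 83.7 CPM for Ppp6r3. Lin7c and Ccdc34, which both fell, flank Lgr4, a receptor for R-spondins, at 16643 and 3559 bases. Lgr4 stayed between 25.2 and 38.5 CPM and did not pass (log2 change of -0.13 ± 0.21, adjusted p = 0.624 from edgeR). Bdnf, the neurotrophin gene on the other side of Lin7c at 163805 bases, fell (log2 change of -2.71, adjusted p = 0.000128 from edgeR).

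Tnfrsf11b, which encodes osteoprotegerin, the decoy receptor that restrains osteoclast formation, lies 132289 bases from Colec10. It fell from 95.5 CPM on day 2 to 9.91 on day 14 and had 18.6 on day 18 (log2 change of -2.55 ± 0.54, adjusted p = 0.00269 from edgeR). Both genes were highest on day 2, but Tnfrsf11b reached its lowest level on day 14 and Colec10 on day 6. Ass1, an enzyme of arginine synthesis beside Fubp3, also fell, from 234 to 56.7 CPM between day 2 and day 18 (log2 change of -2.25, adjusted p = 6.79e-05 from edgeR). Other flanking genes, some of them far off, parted from the gene they flank. Rps12, a ribosomal protein gene 435288 bases from Eya4, fell (log2 change of -1.29, adjusted p = 0.000187 from edgeR). Mal2, 105007 bases from Colec10, rose (3.22, adjusted p = 0.000963 from edgeR). Ptprz1, a receptor phosphatase gene 519258 bases from Fam3c, rose (1.50, adjusted p = 0.00825 from edgeR, and 0.0550 without day 18). Beside Galnt3, Csrnp3 passed as a rise (adjusted p = 0.0464 from edgeR), a call lost under 9 of 19 alternatives, and Ttc21b did not pass (0.581). Bbox1, beside Ccdc34, did not pass either (adjusted p = 0.0826 from edgeR). Tcf21 and Gm5215 had 0 counts, and Prdm12, Gm5887 and Gal were too low to be tested in the line. Pthlh, the gene of parathyroid hormone-related protein, 139322 bases from Klhdc5, had 6 to 49 counts a day and did not pass (adjusted p = 0.714 from edgeR). Of the 11 other locus genes listed in all, 3 rose, 3 fell and 5 did not pass, against 54.3% of all genes called. Of the falls, Cenpw lost its call under 5 and Tnfsf11 under 2 of 19 alternatives.

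**Figure D4:**
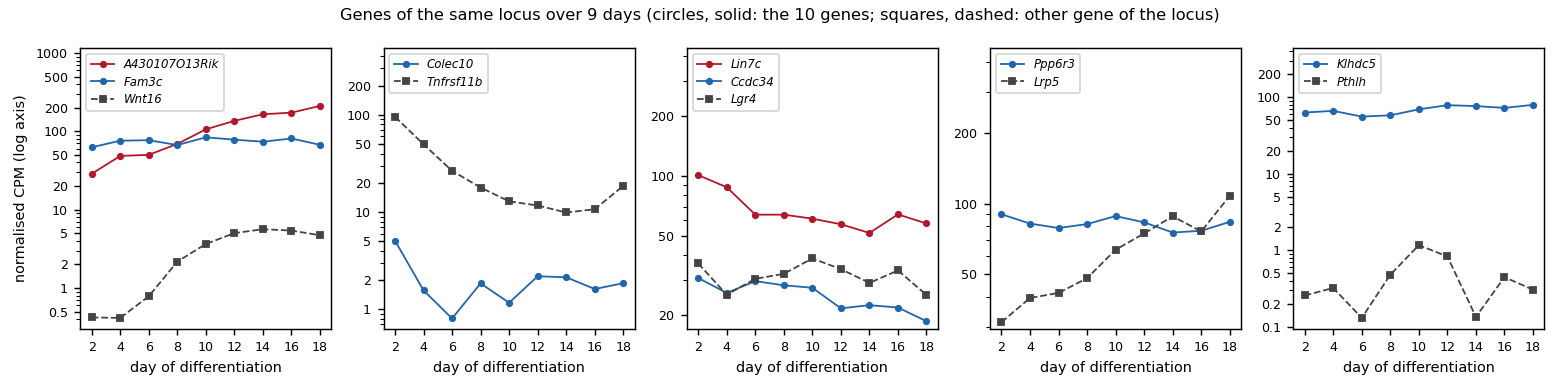
Normalised CPM (vertical log axis) against day of differentiation (horizontal axis) in 5 loci, with the described genes as circles and solid lines and other genes of the locus as squares and dashed lines. Wnt16 and A430107O13Rik climbed while Fam3c stayed between 62.5 and 83.8 CPM, Lrp5 climbed past Ppp6r3, and Tnfrsf11b fell from 95.5 CPM on day 2.

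Relatives of Eya4 moved both ways. Of 12 genes of the EYA, sine oculis and DACH families, 9 were tested, 5 rose, 2 fell and 2 did not pass, with a median log2 change of 0.38 against 0.05 over all genes, of which 28.3% rose and 26.1% fell. Eya1 went from 17.0 to 99.5 CPM between day 2 and day 18 (log2 change of 3.02 ± 0.38, adjusted p = 0.000145 from edgeR), close to the change of Eya4. Eya3, a broadly used member, fell (log2 change of -0.56, adjusted p = 0.00211 from edgeR), and Eya2 rose by 0.38 (adjusted p = 0.0212 from edgeR), a call lost under 4 of 19 alternatives (0.0536 to 0.0947). Among the sine oculis factors, the DNA-binding partners of EYA proteins, Six5 rose by 2.77 and Six4 fell by 0.87 on the log2 scale (adjusted p = 0.00190 and 0.00170 from edgeR).

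Of the 3 FUSE-binding proteins, Fubp3 and Fubp1 fell and Khsrp did not pass, beside 54.3% of all genes called in the line and 26.1% called as falls. Fubp1 went from 134 to 76.3 CPM between day 2 and day 18 (log2 change of -0.81 ± 0.11, adjusted p = 0.000244 from edgeR). Khsrp had a log2 change of -0.21 (adjusted p = 0.0630 from edgeR), which passed with TMM factors (0.0314) and with DESeq2 (0.0269). On day 2 the TPM of Fubp3, 138, was above that of Fubp1, 85.6.

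**Figure D5:**
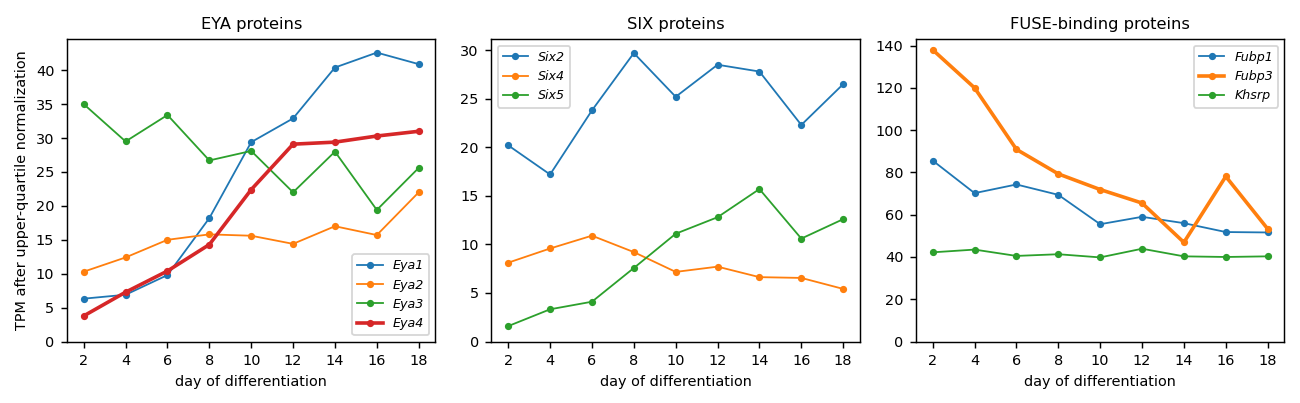
TPM after upper-quartile normalization (vertical axis, from 0) against day of differentiation (horizontal axis) for EYA proteins, 3 sine oculis factors (Six2, Six4 and Six5) and the FUSE-binding proteins, with Eya4 and Fubp3 as thick lines. Eya1 and Eya4 climbed together to 40.9 and 31.0 TPM on day 18, and Fubp3 fell from 138 to 53.3 TPM.

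Of 15 genes that serve the start or extension of mucin-type O-glycans, Galnt3 among them, 6 rose, 2 fell and 7 did not pass. That is 8 of 15 called against 54.3% of all genes. Among the rises, Galnt4 (adjusted p = 0.0491 from edgeR) lost its call under 11 of 19 alternatives and Galnt10 without day 2. Galnt5 rose from 1.78 to 8.53 CPM (log2 change of 2.51, adjusted p = 0.000313 from edgeR) and Galnt7, a follow-up enzyme, fell from 23.5 to 8.56 CPM (log2 change of -1.72, adjusted p = 8.91e-05 from edgeR). Galnt1 was the most abundant, at 72.5 TPM on average against 1.52 TPM for Galnt3. Among genes that handle FGF23, Fgf23 itself had 4 counts over all days and was not tested. In the line 3 rose and 2, Furin and Enpp1, did not pass, beside 28.3% of all genes called as rises. The spline called Furin and Enpp1 (adjusted p = 0.0130 and 6.25e-05 from edgeR). Phex, a protease of the osteocyte lineage, went from 0.889 to 140 CPM, and Dmp1, a mineralised matrix protein, from 0.0935 to 10.3 CPM (adjusted p = 3.50e-05 and 7.99e-05 from edgeR).

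The partners of Ppp6r3, Lin7c, Klhdc5, Colec10 and Fam3c moved in different directions. For all these lists the background was 54.3% of all genes called in the line, 28.3% as rises and 26.1% as falls. Of 7 genes of the phosphatase 6 holoenzyme, Ppp6r2 and Ankrd44 rose (log2 changes of 0.91 and 1.07), Ankrd28 and Ankrd52 fell (-0.79 and -1.64), and 3, the catalytic subunit Ppp6c included, did not pass. Ppp6c, with a log2 change of -0.33 (adjusted p = 0.0595 from edgeR), passed under 8 of 19 alternatives and with the spline (0.00799). Of 9 LIN7 scaffolds and their membrane-associated guanylate kinase partners, 8 were tested, of which Lin7c, Mpp5, Mpp6 and Mpp7 fell, Lin7a and Cask rose and 2 did not pass. Cask did not pass without day 2 or without day 4 (adjusted p = 0.121 and 0.0666 from edgeR). Lin7c, at 31.5 TPM on average, was far above Lin7a at 0.508 and Lin7b at 1.80 TPM. Of 7 CUL3 ligase genes, Klhdc5, Klhl9, Klhl13 and Klhl22 rose, Klhl21 fell, and Cul3 and Rbx1 did not pass the line. The spline called Cul3 (adjusted p = 0.0185 from edgeR). Cul3 passed under 9 of 19 alternatives as a fall, and Klhl21 did not pass without day 2 (adjusted p = 0.0748 from edgeR).

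Of 9 collectin and lectin pathway genes, 3 were tested in the line. Colec12, a scavenger receptor of the family, rose (log2 change of 1.43, adjusted p = 8.92e-05 from edgeR) and averaged 99.3 TPM, Masp1, a protease of the pathway, fell (log2 change of -3.71, adjusted p = 0.000188 from edgeR), and Mbl1 had 0 counts in all days. Of 4 FAM3 genes, Fam3a rose (log2 change of 1.44, adjusted p = 0.000159 from edgeR), Fam3c did not pass, and Fam3b and Oit1 had 3 and 1 counts and were not tested.

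Other cell types and cell division moved with the days too. The summed level of 7 monocyte and macrophage markers was 24.1 to 61.7 TPM on days 2 to 6 and 522 to 2014 TPM on days 14 to 18, and 6 of them rose. Lyz2 made up most of that sum, at 19.9 of 24.1 TPM on day 2 and 1855 of 2014 TPM on day 18. The 5 adipocyte markers all rose, from 3.21 to 7.44 TPM in sum on days 2 to 6 to 188 to 407 TPM on days 14 to 18. The 4 cell division markers all fell, from 249 to 296 TPM in sum to 63.0 to 80.9 TPM. The 6 osteoclast markers summed to 37.6 to 85.9 and 208 to 217 TPM, with 3 rises and with Calcr and Tm7sf4 at 0 counts. Ctsk made up most of this sum, at 36.5 of 37.6 TPM on day 2 and 193 of 212 TPM on day 18. The 4 endothelial markers summed to 3.24 to 3.95 and 8.84 to 12.0 TPM, with 2 rises and 1 fall. The fall, of Kdr, lost its call under 3 of the 17 alternatives that tested it. Without day 2 the log2 change of Kdr was -0.67 (adjusted p = 0.634 from edgeR), against -3.27 over all days. Of the 10 osteoblast markers 7 rose and 3 did not pass the line, while the spline called 10 of 10. Among the rises, Runx2 lost its call without day 4 or day 14 (adjusted p = 0.0755 and 0.0514 from edgeR). Of all genes tested, the line called 54.3% and the spline 57.5%.

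These sums moved over the same days as several of the 10 genes. Up to day 8 the adipocyte sum stayed between 3.21 and 7.44 TPM. From day 2 to day 8 the osteoclast sum rose from 37.6 to 98.9 TPM and the osteoblast sum from 3001 to 6026 TPM. Col1a1 and Col1a2 made up most of the osteoblast sum, at 1526 and 983 TPM on day 2. On day 8 these 2 genes had 2940 and 2445 TPM. Over the same days Sp7 went from 32.3 to 2.77 TPM and Alpl from 9.13 to 1.45 TPM. Bglap was also lower on day 8, and the other osteoblast markers were higher. On day 8, A430107O13Rik stood at 2.41 times and Eya4 at 3.63 times its day 2 CPM. The macrophage sum rose from 24.1 to 68.1 TPM over the same days. On days 2 and 8 the cell division sum was 265 and 263 TPM. Fubp3 stood on day 8 at 0.582 times and Lin7c at 0.631 times its day 2 CPM. Ccdc34 was at 0.919 times its day 2 CPM on day 8 and at 0.704 times on day 12, when the cell division sum was 86.3 TPM. The part of these cell types in the changes of the 10 genes was not tested. In bulk RNA, fewer cells of a type and less RNA per cell cannot be told apart.

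The genes with the most similar profiles, among those of at least 10 TPM on average, were found by the root mean square difference of the centred log2 CPM over the 9 days. For Eya4, whose own profile had an SD of 1.00, they were Fam102a (0.06), Dmpk (0.08) and Myl12b (0.08). For A430107O13Rik, with an SD of 0.94, they were Ctsf (0.13), 5730469M10Rik (0.14) and Ccpg1 (0.14). Those of Fubp3 (SD 0.48) were Nap1l1 (0.09), Pak1ip1 (0.09) and Actr3 (0.10), and those of Lin7c (SD 0.29) were Vamp3 (0.07), Zfp36l2 (0.08) and Tomm22 (0.09). For Ccdc34 (SD 0.23) they were Ckap5 (0.06), Larp7 (0.07) and Rpl21 (0.07), and for Klhdc5 (SD 0.18) Etfdh (0.04), Slc9a3r2 (0.05) and Dcun1d4 (0.05). For Fam3c (SD 0.13) they were Whsc1l1, Ddx42 and Ccdc71 (0.07 each), and for Ppp6r3 (SD 0.08) Ube3b, Dusp11 and Tubgcp4 (0.05 each), differences that are a large part of the profiles themselves. Galnt3 (SD 0.70) and Colec10 (SD 0.68) had no close match, with 0.36 for 1110001J03Rik and 0.40 for Dlc1 as the smallest differences. Each gene was compared with 7593 or 7594 others, so that a close match is found for most shapes. Among the 10 genes themselves, Ppp6r3 was closest to Fam3c (0.18) and Klhdc5 (0.20), and Fubp3 was closest to Lin7c (0.23). The differences of Ppp6r3 are not smaller than the SDs of the profiles compared (0.08, 0.13 and 0.18), so no shared shape can be read from them.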

How the data were processed

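RNA sequencing profiles of 9 days of differentiation, 3 lanes each, were used. Per the labels and the methods of the study, the authors amplified complementary DNA (NuGEN Ovation), built TruSeq libraries, aligned reads to the transcriptome of NCBIM37 with Bowtie 0.12.9 and estimated gene levels by RSEM (1.2.8 in the submitters' processing notes). RSEM's estimated counts were deposited by the authors without normalization. In the deposited TPM, counts are divided by effective length, and in the deposited FPKM this is done per 1000000 fragments. FPKM served as an alternative.

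Lanes of a day were summed and rounded. A line and a natural spline in day were fitted with edgeR 4.0.16 in R 4.3.3 (upper-quartile factors, filterByExpr, minimum count 10, quasi-likelihood, Benjamini-Hochberg over all genes tested, adjusted p under 0.05). CPM used the same factors, with 95% Wilson intervals. Each profile of TPM was scaled by its upper quartile. Depth was 22470195 to 62009157 counts per day. Positions and symbols (37205 of 37991 identifiers matched) came from the GENCODE annotation of NCBIM37. Alternatives were TMM factors, DESeq2 1.42.0, other filters, 27 separate profiles (no replicate block, or with it), each lane or day left out, early against late days, a spline with 2 degrees of freedom, other units and thresholds.

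Genes named in the text were taken from the 10 genes, fixed family and marker lists, the protein-coding genes on either side of each of the 10, and the 3 genes nearest to each in profile. Genes and lists were chosen with earlier results of these data known. Gm17429 and 1700024P03Rik were named for their overlap, outside that rule. A gene of the family lists is not reported here.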

Additional observations from a re-analysis of the deposited data

How the results depend on the processing

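The number of genes that follow day, 8510, ranged from 7187 to 10881 over the alternatives, and that of the 10 genes called from 5 to 7. With the spline they ranged from 7452 to 12857 and from 5 to 9. Of 190 recomputed slopes of the 10 genes, 176 kept direction and call. The slope of Fam3c was -0.05 without day 2 (adjusted p = 0.831 from edgeR) and that of Colec10 0.70 (adjusted p = 0.316 from edgeR), both turned in sign, as day 2 was the lowest day of Fam3c and the highest of Colec10. With other days or lanes left out they reached 0.26 for Fam3c and -1.0 for Colec10. The call of Klhdc5 was lost in 5 alternatives, that of Lin7c in 1, and Galnt3 gained one in 6. A430107O13Rik, Eya4, Fubp3 and Ccdc34 kept their calls in the line in all 19. The median log2 change of all genes was 0.05, and from 0.01 to 0.07 under the alternatives.

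Replicate numbers are lane numbers, and profiles with the same number did not deviate together (mean correlation 0.00535, against -0.00268 for different numbers), so they do not pair the samples. With the 27 profiles as separate samples, the line called 10754 genes without and 10881 with the replicate block, and 7 of the 10 genes in each (Galnt3 with adjusted p = 0.00153 and 0.00257 from edgeR). The spline called 12775 and 12857 genes, and 9 of the 10 genes in each. Lanes of a day are not independent cultures. Expression calls of Galnt3 and Colec10, at 6 and 1 days, were 0 and 0 days with a threshold of 5 TPM and 9 and 7 days with one of 0.5 TPM. Galnt3 and Colec10 had 16 to 218 counts a day, and days of Galnt3 differed beyond their counting intervals.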
